A study of Homo sapiens with 20 samples.

Results

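H3K27ac on chromosomes 13 and 18, the gene-poorest autosomes per unit of length, was examined in G401 cells with and without restored SMARCB1. Every deposited H3K27ac peak on either chromosome was taken, which gave 15598 of the 458811 peaks in 4 lists, 8316 on chromosome 13 and 7282 on chromosome 18. The chromosomes had been picked with the H3K27ac peak numbers of both groups known, so the SMARCB1 and GFP values below are a description and no test was made of them. With 2 libraries a group, an exact two-sided permutation test could not go below p = 0.333.

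The series held 20 samples in 10 groups of 2, from G401, a cell line of a human rhabdoid tumour with the genotype SMARCB1(-/-). Doxycycline induced either GFP, the control, or SMARCB1, so both groups lacked the endogenous subunit and both carried an induced gene. Chromatin was immunoprecipitated after enzymatic digestion with micrococcal nuclease (MNase). The duration and dose of induction and the expression construct are not given in the sources used here, and all values come from this single line. The 4 H3K27ac libraries, 2 of each group, are described, while the H3K4me1, H3K4me3, SMARCA4 and input samples were not analysed here. No label says whether replicates were separate cultures, so the spread between them may be technical.

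H3K27ac is the acetylation of lysine 27 on histone H3, deposited mainly by p300 and CBP, and it marks active enhancers and promoters. SMARCB1 is a core subunit of the canonical SWI/SNF (BAF) remodelling complexes, which use ATP to move nucleosomes and open enhancers. It is the subunit lost in rhabdoid tumours. Chromosome 13 is acrocentric: its short arm carries ribosomal RNA gene repeats and little unique sequence, so peaks are mapped on the long arm. Chromosome 18 has both arms, is rich in gene deserts and lies near the nuclear periphery in many cell types.

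Depth could only be judged indirectly. A peak's p-value and fold enrichment together fix the number of fragments at its summit and the background against which the caller judged it. That background was 1.82 and 3.74 fragments in the GFP libraries (replicates 1 and 2), and 4.09 (4.79 before a scaling by 0.855) and 3.89 in the SMARCB1 libraries. GFP replicate 1 was thus the shallowest library by this measure, although its list was the longer of the GFP lists. GFP replicate 2 and SMARCB1 replicate 2 lay closest together in background. The ratio between these libraries is given for the whole chromosomes and for windows of like density. The part of depth in the results was otherwise not tested.

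Both chromosomes had more than double the number of H3K27ac peaks in the SMARCB1-induced cells. Chromosome 13 had 1472 and 1192 peaks in GFP replicates 1 and 2, and 3032 and 2620 in SMARCB1 replicates 1 and 2. Chromosome 18 had 1194 and 980 with GFP, and 2691 and 2417 with SMARCB1. On both, the lower SMARCB1 library was above the higher GFP library. This held on 22 of 22 autosomes, a background of 100%, so the direction was shared by the whole genome and the size of the ratio is what set these chromosomes apart in description. The mean went from 1332 ± 198 to 2826 ± 291 on chromosome 13, a ratio of 2.12 ± 0.384, and from 1087 ± 151 to 2554 ± 194 on chromosome 18, a ratio of 2.35 ± 0.372 (SD, n = 2 libraries a group; the SD of a ratio is propagated from both groups). Over the other 20 autosomes the ratio was 1.57 ± 0.245. Between the libraries of closest background, the ratio was 2.20 on chromosome 13, 2.47 on chromosome 18 and 1.69 on the others. With as many peaks taken from every library as the shortest list held, the ratios were 1.31 and 1.43.

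**Figure D1:**
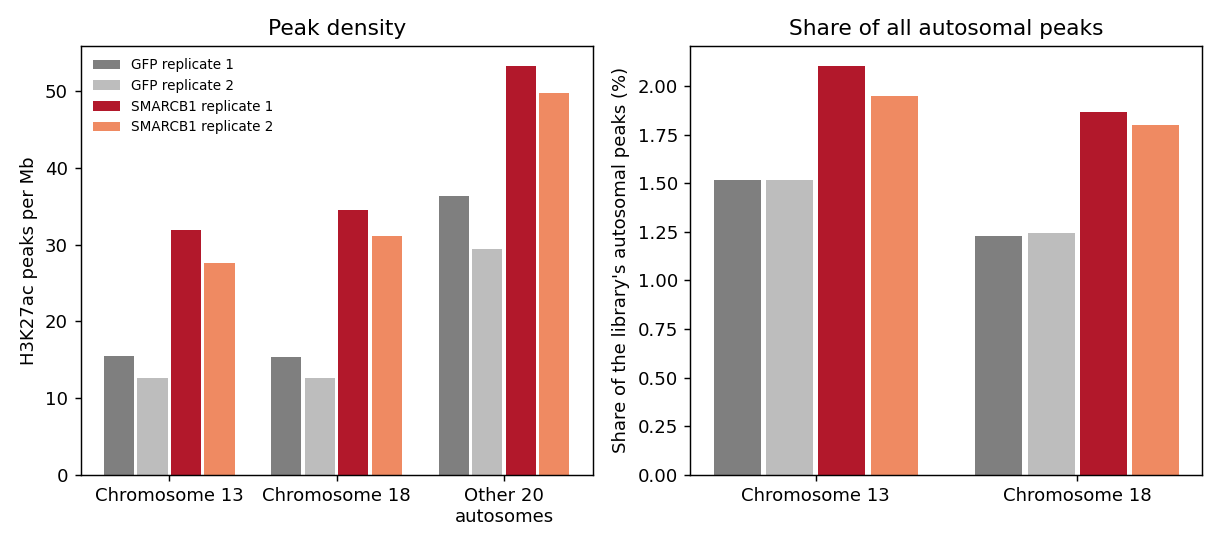
H3K27ac peaks per Mb on chromosome 13, chromosome 18 and the other 20 autosomes (left) and the share of a library's autosomal peaks that lay on each chromosome (right), 1 bar for each library. With GFP the density of both chromosomes was 12.6 to 15.5 peaks per Mb, and the shares of the GFP libraries nearly coincide while both SMARCB1 bars are higher.

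Per Mb of the span from the first to the last peak, chromosome 13 held 15.5 and 12.6 peaks with GFP and 31.9 and 27.6 with SMARCB1. Chromosome 18 held 15.3 and 12.6, then 34.6 and 31.05. The other autosomes together held 36.3 and 29.4, then 53.2 and 49.7, so both chromosomes stayed below that level in every library. In the GFP cells they had the lowest densities of all 22 autosomes, chromosome 18 first and chromosome 13 second. In the SMARCB1 cells chromosome 4 was the sparsest, with 28.1 peaks per Mb, followed by chromosome 13 with 29.8 and chromosome 18 with 32.8 (group means).

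As a share of a library's autosomal peaks, which scales out the length of the list, chromosome 13 held 1.52% in both GFP libraries and 2.10% and 1.95% in the SMARCB1 libraries. Chromosome 18 held 1.23% and 1.25%, then 1.87% and 1.80%. The GFP libraries almost coincided, and the SMARCB1 libraries stood clear of them. Groups separated by share on other autosomes as well: upward on chromosome 3 (5.08% and 5.24%, then 5.98% and 5.94%), downward on chromosome 19 (7.77% and 7.21%, then 5.75% and 5.73%). By the rise in share, chromosomes 13 and 18 had ranks 6 and 3 of the 22 autosomes, at 0.510 and 0.594 percentage points. The largest rises were on chromosomes 3 (0.801) and 2 (0.702). Together the chromosomes held 2.75% ± 0.0113 of the autosomal peaks with GFP and 3.86% ± 0.156 with SMARCB1 (SD, n = 2), 1.10 percentage points more.

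The covered length differed less than the peak number. Peaks covered 1.38 and 1.32 Mb of chromosome 13 with GFP and 2.27 and 1.83 Mb with SMARCB1, a ratio of 1.52 ± 0.238. On chromosome 18 they covered 1.22 and 1.17 Mb, then 2.11 and 1.71 Mb, a ratio of 1.60 ± 0.244. The other autosomes together gave 1.30 ± 0.187 (SD, n = 2 a group). Among the strongest 20000 peaks of each library the covered length ratio of both chromosomes together was 0.997, against 1.56 in the full lists. Median peak widths were alike in all libraries. They were 371 to 410 bp on chromosome 13 and 374 to 440.5 bp on chromosome 18, against 378 to 414 bp elsewhere. The mean width was nevertheless lower with SMARCB1 on both chromosomes, since covered length rose less than peak number.

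Ranked by their SMARCB1 to GFP ratio, chromosome 18 was first and chromosome 13 second of the 22 autosomes, followed by chromosome 3 at 1.83. Chromosome 19, the densest in genes, was last at 1.21. The 2 chromosomes kept these ranks in each of the 4 combinations of a SMARCB1 with a GFP library. Within groups they were less far from the rest: the ratio of GFP replicate 1 to 2 was 1.23 and 1.22 on chromosomes 13 and 18, ranks 11 and 13, and that of the SMARCB1 replicates was 1.16 and 1.11, ranks 1 and 5. Chromosome 13 thus also had the widest gap between the SMARCB1 replicates of any autosome. Sparse chromosomes generally had the higher ratios. Over the 22 autosomes the log2 ratio and the log2 peak density had a Pearson r of -0.767 and a Spearman rho of -0.770, and over the 20 others alone -0.743 and -0.708, a description of chromosomes that share the same 4 libraries. Chromosome 4, with a ratio of 1.79, had the same density as chromosome 13 over the 4 libraries, 21.9 peaks per Mb.

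**Figure D2:**
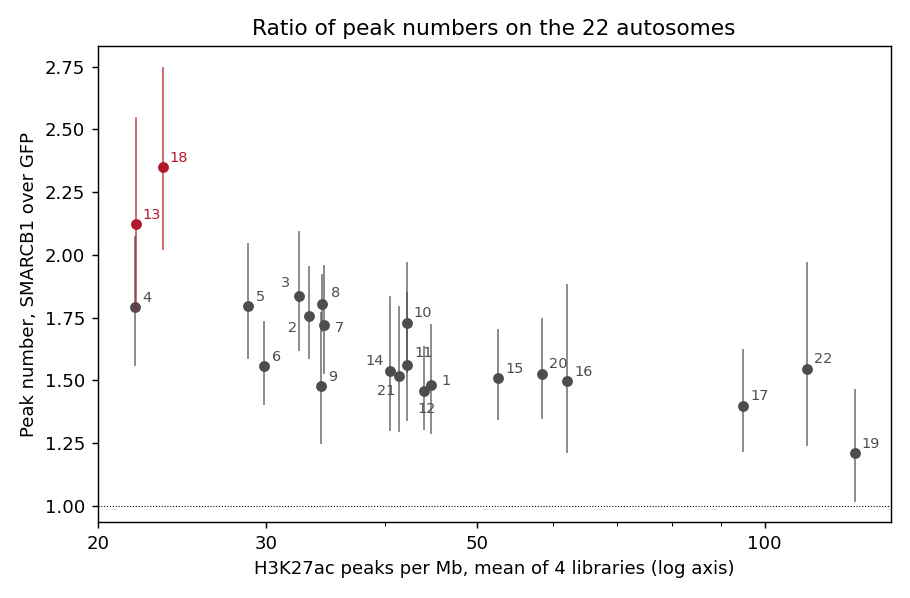
Ratio of peak numbers, SMARCB1 over GFP, against the mean peak density of the 4 libraries (log axis) on each autosome; points are ratios of group means and lines span the 4 pairs of a SMARCB1 and a GFP library. Chromosomes 13 and 18 (red) lie highest, at 2.12 and 2.35, and chromosome 4 lies beside them in density at 1.79.

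The label of these chromosomes as gene-poor was checked against RefSeq, whose GRCh38.p14 table names 338 protein-coding genes on chromosome 13 and 270 on chromosome 18. Over the hg19 span of the peaks this is 3.56 and 3.47 genes per Mb, the lowest values of all autosomes, where the others ranged from 4.11 on chromosome 4 to 24.7 on chromosome 19. Counted per gene, the GFP peaks were 3.94 on chromosome 13 and 4.03 on chromosome 18, below the median of the others at 4.61. The SMARCB1 peaks were 8.36 and 9.46 per gene, above the median of the others at 7.39. Acetylated sites per gene were therefore on the low side of the autosomes in GFP cells and on the high side in SMARCB1 cells, within the range of the others on both occasions (3.39 to 6.75 and 5.30 to 10.4).

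The arms of chromosome 18 hardly differed from each other in their SMARCB1 to GFP ratio. A stretch without peaks from 14132428 to 18580327 (hg19, as all positions here), which holds the centromere, separated them. The short arm had 303 and 253 peaks with GFP and 685 and 600 with SMARCB1, a ratio of 2.31 ± 0.365. The long arm had 891 and 727, then 2006 and 1817, a ratio of 2.36 ± 0.377 (SD, n = 2 a group). Each SD holds differences between whole libraries that both arms share, so it does not measure the difference between the arms. The short arm was the denser in every library, with 21.7 and 18.1 peaks per Mb against 14.99 and 12.2 with GFP, and 49.0 and 42.9 against 33.8 and 30.6 with SMARCB1. The long arm of chromosome 13 stands for the whole chromosome, at 2.12.

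Along both chromosomes the ratio was uneven. In segments of 10 Mb, the peak-rich ends of chromosome 13 had the lowest ratios: 1.62 from 20 to 30 Mb, 1.60 from 100 to 110 Mb and 1.70 beyond 110 Mb. The highest was 7.52 from 80 to 90 Mb, where 13 and 10 GFP peaks stood against 99 and 74 SMARCB1 peaks. From 30 to 40 Mb there were 63 and 66 against 272 and 255 peaks, a ratio of 4.09, and every window of that segment had more SMARCB1 peaks. From 60 to 70 Mb there were 114 and 98 against 357 and 322, a ratio of 3.20. High ratios and many additional peaks did not always coincide: the segment from 80 to 90 Mb held 5.02% of the net difference of chromosome 13, that from 90 to 100 Mb, with a ratio of 2.54, 16.7%, and that beyond 110 Mb 13.1%.

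On chromosome 18 the highest ratio, 4.51, was between 50 and 60 Mb, where 43 and 44 GFP peaks stood against 197 and 195 SMARCB1 peaks. The segments from 10 to 20 Mb and from 30 to 40 Mb followed with 3.16 and 3.11. The lowest, 1.69, was at the end of the long arm beyond 70 Mb. From 20 to 30 Mb, 283 and 244 GFP peaks stood against 629 and 581, which made up 23.3% of the net difference of the chromosome at a ratio of 2.30. No segment of either chromosome had a ratio below 1, and in none did any SMARCB1 library have fewer peaks than a GFP library.

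**Figure D3:**
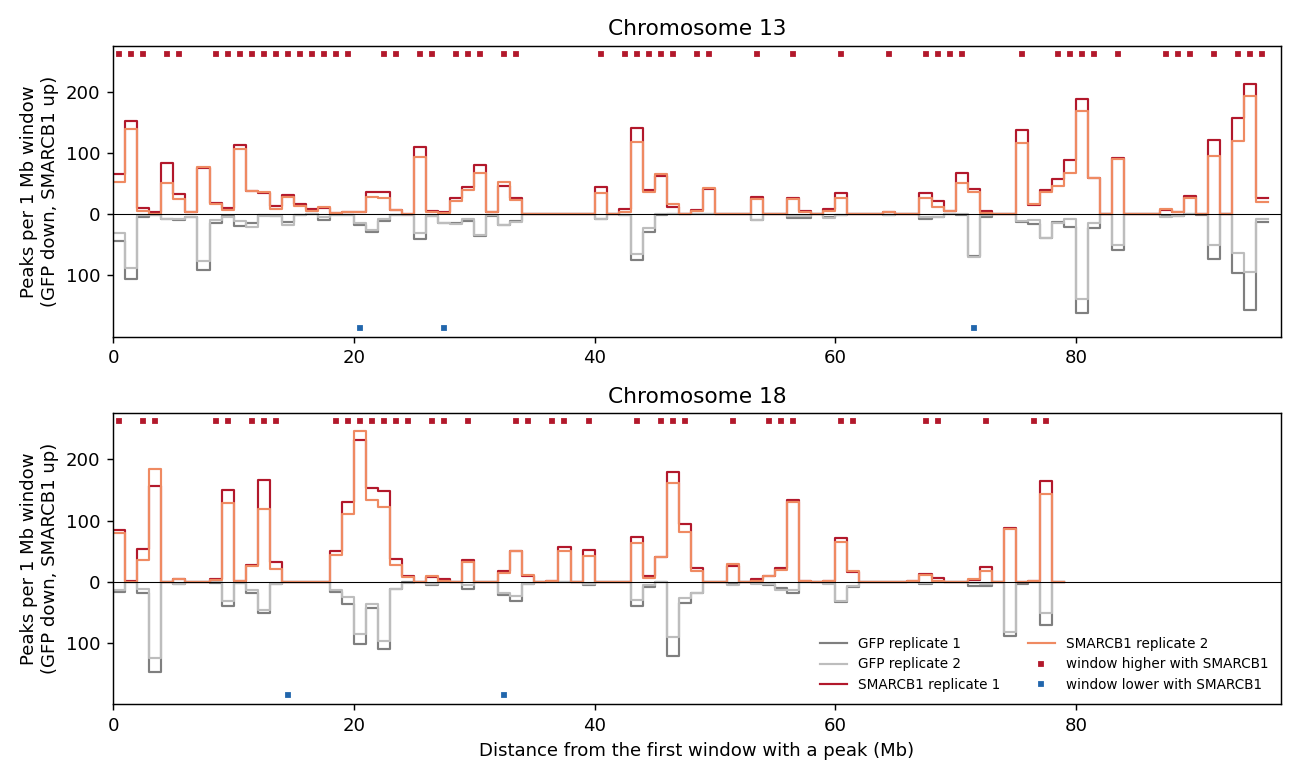
Peaks per 1 Mb window along chromosomes 13 and 18, with GFP libraries drawn downward and SMARCB1 libraries upward, against the distance from the first window with a peak. Squares mark windows in which both SMARCB1 libraries were above (red, 55 on chromosome 13 and 38 on chromosome 18) or below (blue, 3 and 2) both GFP libraries.

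In windows of 1 Mb, chromosome 13 spanned 96 and chromosome 18 spanned 79. Both SMARCB1 libraries were above both GFP libraries in 93 of these 175 windows, or 53.1%, against a background of 53.5% of the 2793 autosomal windows. The opposite order was found in 5 windows, or 2.86%, against 4.22%; it was found in 12 without GFP replicate 2, in 8 without SMARCB1 replicate 1 and in 15 with lists of equal length. The share of windows with more SMARCB1 peaks was therefore that of the genome when empty windows were counted, with 57.3% on chromosome 13 and 48.1% on chromosome 18. Among windows with a peak in any library it was 75.6%, against 71.0% of all such autosomal windows. The size differed more in description: in 57 windows, or 32.6%, each SMARCB1 library had at least 2 times the peaks of each GFP library, against a background of 22.5%. A further 52 of the 175 windows, 29.7%, were empty in all 4 libraries, against 24.3% on the other autosomes.

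The additional peaks were spread over the windows about as unevenly as elsewhere. Of the net difference of 1494 peaks between the group means on chromosome 13, 50% lay in 11 windows, and of the 1467 on chromosome 18, 50% lay in 7 windows. This is 11.5% and 8.86% of their windows, against 10.3% for the other autosomes together. The 10 windows with the largest differences held 48.0% and 63.7%. The longest run of consecutive windows with more peaks in both SMARCB1 libraries was 12 windows on chromosome 13, from 28 to 40 Mb, with 81 and 80 GFP peaks against 301 and 278 SMARCB1 peaks, a ratio of 3.60. On chromosome 18 it was 7 windows, from 18 to 25 Mb beside the centromere, with 318 and 272 against 761 and 691, a ratio of 2.46. Such runs were between 3 and 24 windows long on the other autosomes, with a median of 8, so neither was unusual in length.

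The window with the largest difference on chromosome 13 ran from 95 to 96 Mb, where 13 and 11 GFP peaks stood against 138 and 116 SMARCB1 peaks, covering 10.9 and 8.58 kb against 92.5 and 74.3 kb. Its strongest peak did not follow: the highest fold enrichment in the window was 17.5 and 12.7 with GFP and 12.6 and 9.82 with SMARCB1. From 30 to 31 Mb, 19 and 11 peaks stood against 113 and 107, and the highest fold enrichment, 16.6 and 11.8 against 13.3 and 10.8, was again no higher with SMARCB1. These folds depend on the background of each list. In the window from 114 to 115 Mb, near the end of the chromosome, 156 and 94 peaks stood against 212 and 193. From 45 to 46 Mb there were 41 and 31 against 110 and 94, and from 99 to 100 Mb 20 and 8 against 88 and 67. In all 5 windows the groups did not overlap, but the windows were picked for the size of their difference. SMARCB1 was higher without overlap in 53.5% of all autosomal windows.

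On chromosome 18 the largest difference lay from 20 to 21 Mb, with 102 and 86 GFP peaks against 232 and 247 SMARCB1 peaks. The adjoining window from 21 to 22 Mb had 43 and 37 against 154 and 133. Both belong to the run beside the centromere. From 56 to 57 Mb, 18 and 13 peaks stood against 133 and 130, covering 12.4 and 11.1 kb against 119 and 95.4 kb. Here the highest fold enrichment was 21.05 and 10.7 with GFP and 21.01 and 19.2 with SMARCB1. On the short arm, the window from 9 to 10 Mb had 39 and 32 against 150 and 128, and that from 12 to 13 Mb had 51 and 46 against 167 and 119. None of these 5 windows, picked in the same way, had overlapping groups either, against the same background of 53.5%.

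Fewer peaks with SMARCB1 were rare. The largest such difference on chromosome 13 was from 91 to 92 Mb, with 68 and 70 GFP peaks against 41 and 36. From 40 to 41 Mb there were 18 and 15 against 4 and 3, and from 47 to 48 Mb 15 and 14 against 3 and 2. These were the 3 windows of the chromosome with non-overlapping groups in this direction. The next in order, from 27 to 28 Mb (91 and 76 against 76 and 77) and from 110 to 111 Mb (2 and 0 against 0 and 0), had groups that touched or overlapped. On chromosome 18 the largest was small: from 32 to 33 Mb, 22 and 19 against 18 and 15. The only other window with non-overlapping groups, from 14 to 15 Mb, had 1 and 1 against 0 and 0, too few to read. The remaining named windows, from 75 to 76, 71 to 72 and 10 to 11 Mb, had group differences of 1.5 peaks or less and groups that touched or overlapped.

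Large parts of both chromosomes had no H3K27ac peak in any library. Stretches of at least 1 Mb without a peak took up 41.7 Mb (43.9%) of the span of chromosome 13 and 49.1 Mb (63.1%) of that of chromosome 18. On the other autosomes the share was between 16.5% and 53.1%, with a median of 41.9%, so chromosome 18 lay above all of them and chromosome 13 near their median. The longest ran from 53261579 to 60217778 on chromosome 13 (6.96 Mb) and from 61090787 to 66381237 on chromosome 18 (5.29 Mb). Peak names are numbered in order and no number was skipped on either chromosome in any list, so no peak between the first and the last had been taken out after calling.

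Some stretches without any GFP peak held many SMARCB1 peaks in both replicates. On chromosome 13, 11 of the 23 stretches of at least 1 Mb that were free of GFP peaks held at least 5 peaks in each SMARCB1 library, and on chromosome 18, 8 of 20. On the other autosomes together it was 144 of 519, or 27.7%, against 47.8% and 40%. Single autosomes varied widely, from 0 of 5 on chromosome 19 to 2 of 4 on chromosome 22. It was 3 of 7 on chromosome 21 and 11 of 28 on chromosome 9, so chromosomes 13 and 18 lay within the range of the others. The fullest ran from 65990450 to 73291930 on chromosome 13, 7.30 Mb with 71 and 73 SMARCB1 peaks. They lay in its first part, since the stretch from 69903019 to 73287393 was empty in all 4 libraries. A single short GFP interval separated it from the stretch before, from 64282198 to 65990179, which held 65 and 65. On chromosome 18 a GFP-free stretch from 55380161 to 56338736 held 67 and 71 peaks. At 0.959 Mb it was too short to be among the stretches counted above. Another, from 34409940 to 37378971, held 59 and 52. Replicates were close in number in each of these stretches but not in all: a shorter one on chromosome 13, from 23974061 to 24461895, held 68 and 36.

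**Figure D4:**
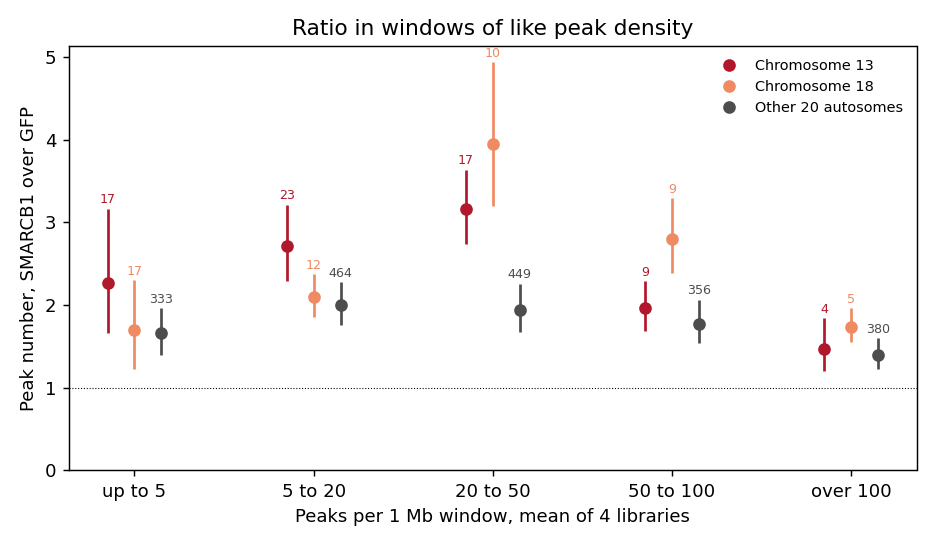
Ratio of peak numbers, SMARCB1 over GFP, in 1 Mb windows grouped by their mean peak number over the 4 libraries; points are group ratios, lines span the 4 pairs of a SMARCB1 and a GFP library, and small numbers are the windows in a class. In the class of 20 to 50 peaks chromosomes 13 and 18 are at 3.16 and 3.94 and the others at 1.94.

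Windows were then compared at like density, since the ratio varied with the number of peaks in a window. In windows with a mean of 20 to 50 peaks over the 4 libraries, the ratio was 3.16 on chromosome 13 (17 windows) and 3.94 on chromosome 18 (10 windows), against 1.94 on the other autosomes (449 windows). Between the libraries of closest background it was 3.13, 4.30 and 2.02. None of the 19 other autosomes with at least 5 windows in this class reached either value, the highest being 2.25 on chromosome 4. From 50 to 100 peaks the ratios were 1.96 and 2.80 against 1.77. There chromosome 18 was above all 20 others and chromosome 13 was below 5 of them. In windows with 5 to 20 peaks the values were 2.71 and 2.10 against 2.00, with 2 and 6 other autosomes higher. Up to 5 peaks they were 2.27 and 1.70 against 1.66, and over 100 peaks, where the chromosomes had 4 and 5 windows, 1.47 and 1.74 against 1.39. If the GFP peaks of each class were multiplied by the ratio of the other autosomes in that class, chromosome 13 would have had a ratio of 1.70 and chromosome 18 of 1.63, below the 2.12 and 2.35 counted. Both counted ratios were thus above what the others showed in these classes. The class of 20 to 50 peaks was where both chromosomes stood furthest from the rest. The SMARCB1 counts in a ratio also help to set the class of a window. The chromosomes had been picked on the same peak numbers, so this comparison is a description and gives no independent support.

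Overlapping peaks of the 4 libraries were merged into regions. Those covered in each SMARCB1 library but in no GFP library are called gained here, and those covered in each GFP library but in no SMARCB1 library are called lost. Of 6505 merged regions on both chromosomes, 1529 were gained, or 23.5%, against a background of 17.5% of all autosomal regions. Lost regions numbered 192, or 2.95%, against 3.89%. Chromosome 13 had 788 gained and 109 lost, and chromosome 18 had 741 and 83. Gained regions made up 55.5% and 60.05% of all regions present in both SMARCB1 libraries on chromosomes 13 and 18, and 23.9% to 55.3% on the other autosomes. Lost regions made up 16.7% and 16.8% of those present in both GFP libraries, against 17.0% on the others together. Measured against the regions present in both GFP libraries, loss was thus about as frequent as elsewhere, while against all merged regions it was less frequent. Gain was more frequent by either measure, in description. Calling a region on fewer libraries moved these counts: gained regions numbered 2910 without SMARCB1 replicate 1 and 3677 without SMARCB1 replicate 2, and lost regions numbered 487 without GFP replicate 1, 674 without GFP replicate 2 and 294 without SMARCB1 replicate 1. With lists of equal length 721 regions were gained, and with a reciprocal overlap of 50% between libraries 355 were lost. With peaks within 1 kb joined, 560 were gained and 48 lost. Whether acetylation at a gained site was present in more cells or stronger in each cell cannot be told apart in these bulk samples.

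Gained regions of chromosome 13 lay far from acetylation of the GFP cells. The median distance to the nearest GFP peak was 22762.5 bp on chromosome 13, the longest of all autosomes, and 8310 bp on chromosome 18, the third longest, against 4128 bp for the gained regions of the other autosomes together. More than 100 kb away were 27.7% on chromosome 13 and 13.6% on chromosome 18, against 7.58%. Most lost regions were nearer to a peak of the other group, at medians of 1550 and 914 bp from a SMARCB1 peak, although 12.8% of those on chromosome 13 lay more than 100 kb away, against 1.205% on chromosome 18 and 5.14% elsewhere. Of the lost regions, 41.3% and 55.4% had such a peak within 1 kb, against 44.0% on the other autosomes. These distances depend on how dense the peaks of the other group are. GFP peaks were fewer than SMARCB1 peaks on both chromosomes, and sparser there than on any other autosome. Distances of gained and lost regions are therefore not on a common footing, and the part of peak density in them was not tested.

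Peaks in gained regions were weaker and narrower than those in regions common to all 4 libraries. In SMARCB1 replicate 1 the median fold enrichment, the authors' value for a summit over its background, was 3.89 in gained and 5.23 in common regions of chromosome 13, and 3.73 and 5.40 on chromosome 18. The median widths there were 461 and 862 bp on chromosome 13, and 454 and 946.5 bp on chromosome 18. On the other autosomes the same list gave 3.72 and 4.90, with 423 and 788 bp.

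The strongest gained and lost regions were ranked by fold enrichment, taking for each the smaller of its 2 values. Peaks were called separately in each library, so these folds are not on a common scale, and no gene is named at these positions because the annotation used here is of another build. On chromosome 18, 4 of the 5 strongest gained regions lay close together: from 56242292 to 56252122 (fold enrichment 15.5 and 13.9 in SMARCB1 replicates 1 and 2), from 56308727 to 56314373 (13.8 and 11.9), from 56303400 to 56308615 (12.1 and 10.6) and from 56257734 to 56262154 (12.4 and 10.4). They lay 24364 to 86615 bp from the nearest GFP peak and inside the window from 56 to 57 Mb. The fifth, from 47074944 to 47078507 (14.1 and 11.5), had a GFP peak only 2129 bp away.

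On chromosome 13 the strongest gained region ran from 65277548 to 65283340, at 11.1 and 11.5 in SMARCB1 replicates 1 and 2, with no GFP peak nearer than 706840 bp. The region from 80911224 to 80915456 (12.2 and 10.9) was 855393 bp from a GFP peak, and that from 69248718 to 69254971 (10.1 and 11.9) was 3258269 bp from one. These lay inside the interior segments with the higher ratios. The regions from 63321500 to 63321907 (11.3 and 10.2) and from 30911708 to 30912659 (11.9 and 9.62) were 122256 and 29422 bp from a GFP peak.

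Among lost regions of chromosome 13, 4 of the 5 strongest lay in the window from 47 to 48 Mb. The first spanned 47127243 to 47129390, reached a fold of 12.7 in GFP replicate 1 and 9.36 in GFP replicate 2, and was 240509 bp from a SMARCB1 peak. The others there were from 47259032 to 47262512 (9.56 and 7.60), from 47254200 to 47258884 (9.75 and 7.18) and from 47252576 to 47254048 (7.08 and 6.51). The fifth was from 91326403 to 91327996 (6.38 and 5.91), in the window from 91 to 92 Mb. On chromosome 18 the strongest ran from 32556383 to 32559222 (7.73 and 6.55), with a SMARCB1 peak 47114 bp away. The other 4 had lower folds between 5.28 and 5.69, and 3 of them had a SMARCB1 peak within 1 kb.

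**Figure D5:**
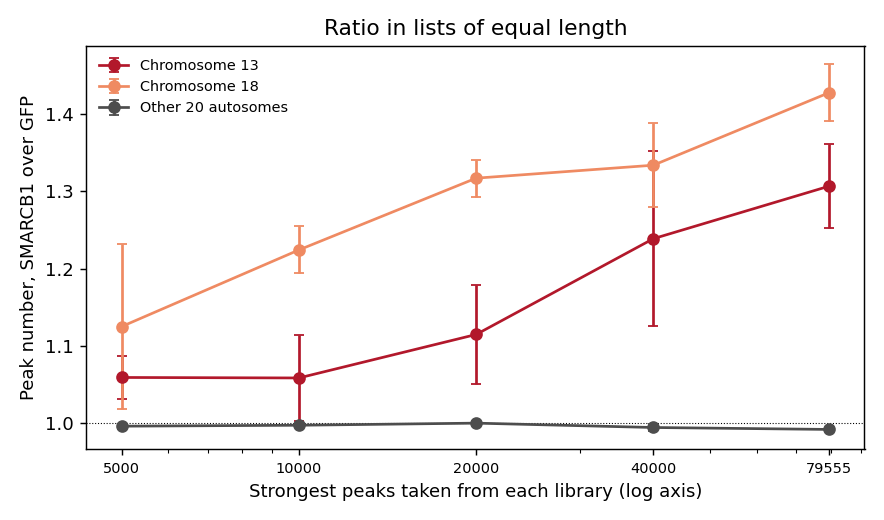
Ratio of peak numbers, SMARCB1 over GFP, when the same number of strongest peaks was taken from every library (log axis); error bars are the propagated SD of 2 and 2 libraries. Chromosomes 13 and 18 go from 1.06 and 1.12 among the strongest 5000 peaks to 1.31 and 1.43 among the strongest 79555, while the other 20 autosomes, which make up most of each list, stay near 1.

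The ratios of both chromosomes were smaller among strong peaks. When every library gave its strongest 79555 peaks, the length of the shortest list, chromosome 13 had 1212 and 1192 with GFP and 1615 and 1526 with SMARCB1, a ratio of 1.31 ± 0.0546. Chromosome 18 had 971 and 980, then 1368 and 1417, a ratio of 1.43 ± 0.0367. The groups did not overlap on either chromosome, but the share of all autosomes that separated in these lists is not given here. The chromosomes kept the first and second rank of the 22 autosomes, the next being chromosome 8 at 1.14 and the last chromosome 19 at 0.795. In such lists the ratio measures a shift of share, because the total is fixed. Among the strongest 20000 peaks the ratio of chromosome 13 was 1.11 ± 0.0640, rank 6, and that of chromosome 18 was 1.32 ± 0.0239, rank 1. Among the strongest 5000 chromosome 13 had 92 and 94 against 100 and 97 peaks, and chromosome 18 had 83 and 77 against 95 and 85 (ratios 1.06 and 1.12, ranks 8 and 3, SD, n = 2 a group). Chromosome 13 was therefore not near the top of the order among the strongest peaks, whereas chromosome 18 was among the first 3 at every list length tried.

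The highest single fold enrichment of each chromosome was in GFP replicate 1. It was taken per library without matching positions, so it does not say whether the strongest SMARCB1 sites had a GFP peak. The highest fold enrichment on chromosome 13 was 35.1 and 21.3 in the GFP libraries and 20.5 and 18.7 in the SMARCB1 libraries, and on chromosome 18 it was 36.1 and 21.3, then 21.5 and 19.6. Fold enrichments of the libraries are not on a common scale. Most peaks were judged against the background given above. It applied to 60.1%, 64.2%, 74.6% and 74.5% of the peaks of chromosome 13 and to 59.0%, 60%, 75.6% and 76.2% of those of chromosome 18 (GFP replicates 1 and 2, then SMARCB1 replicates 1 and 2). The summits of the peaks at this background held a median of 13, 18, 21 and 18 fragments on either chromosome, against 13, 18, 22 and 18 elsewhere.

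Clusters of many peaks were more numerous with SMARCB1 on both chromosomes. In the authors' tables of peaks stitched across short gaps, leaving out those at transcription start sites, chromosome 13 had 26 and 18 regions made of at least 10 peaks with GFP and 60 and 53 with SMARCB1. Chromosome 18 had 18 and 14, then 64 and 57. They made up 8.02% and 6.79% of the stitched regions of chromosome 13 with GFP and 10.2% and 10.2% with SMARCB1. The corresponding values were 9.42% and 8.64%, then 15.8% and 18.5%, on chromosome 18. On the other autosomes together these shares were 5.37% and 6.33%, then 7.18% and 8.01%. The region with most peaks on chromosome 18 overlapped between tables but was shifted and longer with SMARCB1, with 81 peaks from 20607499 to 20778723 and 78 peaks in the GFP tables, and 145 peaks from 20673300 to 20894966 and 156 peaks in the SMARCB1 tables. On chromosome 13 it differed: from 27515598 to 27653614 with 61 peaks in GFP replicate 1 (57 in replicate 2), and from 114745839 to 114896592 with 82 peaks in SMARCB1 replicate 1 (67 in replicate 2).

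Super-enhancers are long clusters of enhancers with a high summed signal. The authors marked 16 and 10 stitched regions of chromosome 13 as super-enhancers with GFP, and 44 and 30 with SMARCB1. On chromosome 18 they marked 11 and 8, then 50 and 35. Together this was 3% and 2.79% of the autosomal marks with GFP and 4.73% and 4.30% with SMARCB1. Marks were more numerous on all autosomes together, with 900 and 645, then 1987 and 1510. Of the stitched regions of both chromosomes, 5.24% and 4.22% were marked with GFP and 9.45% and 7.84% with SMARCB1. On the other autosomes it was 3.33% and 3.34%, then 5.43% and 4.93%. The SMARCB1 mean exceeded the GFP mean by 57 marks, and by 9.5 when the same number of regions was taken by rank from every table. In these tables regions with the same number of peaks share 1 deposited signal, so a mark belongs to a number of joined peaks and not to a signal of the region's own.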

How the data were processed

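The chromosomes, regions and alternatives were chosen with earlier results of these data known. Reads were aligned to hg19 with BWA 0.7.12-r1039, per the submitters' processing notes, and peaks were called per library with MACS2 and filtered, per the deposited peak names and file tags. The caller's version, control and filter rule are not given in the sources used here. The fold enrichment is a ratio deposited by the authors, as are the -log10 p and -log10 q of each peak. The lowest -log10 q was 1.32 to 1.36. Stitched regions, ranks and super-enhancer marks are other deposited values of the authors, made with ROSE per the file headers. Table names hold the induced gene and a replicate number, which tied each table to a library. The names carry no antibody, but 100% of its regions start and stop at peaks of that library's H3K27ac list, against at most 0.0194% in another list. A further 4 columns of per-sample values matched no sample and were not used.

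Peaks were counted by their middle in 1 Mb windows between the first and last peak of each of 22 autosomes, and merged at 1 bp overlap. Named were, on each chromosome, the 5 strongest gained and lost regions, the 5 windows with the largest difference each way and the longest run. The plan split chromosome 18 at its longest stretch without peaks; this lay on the long arm, so the second longest, at the centromere, was used. The background was solved from the Poisson upper tail of the whole number of summit fragments. Counting and background were tested on simulated lists. No read totals were used, so depth is relative and no counting interval was possible. Tried as alternatives were lists of equal length, a minimum -log10 q of 5, joined peaks, other windows and overlaps, the replicate block, and the omission of 1 library at a time. Lists of 5000, 10000 and 40000 peaks, and the replicate 2 libraries on their own, were chosen after seeing the data. Computation used scipy 1.17.1, pandas 2.3.3, numpy 2.4.6 and matplotlib 3.10.9 under Python 3.11.15.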

Additional observations from a re-analysis of the deposited data

How the results depend on the processing

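Of 123 alternative values for 12 results, 72 stayed within the SD between libraries (counts within 1.5 times), 46 moved further and 5 reversed. The 72 are not a measure of stability. The SD comes from the same 2 libraries a group, so omitting 1 library could hardly move a ratio, share or mark difference beyond it. For the share, the gained and lost regions and the marks, the replicate block repeats the main value. At a -log10 q of at least 5, the ratio was 1.69 on chromosome 13, 1.86 on chromosome 18, 1.31 on the other 20 autosomes, 1.84 on the short and 1.87 on the long arm of chromosome 18, with a share difference of 0.937 points and 686 gained regions. With lists of equal length, the ratios were 1.31, 1.43, 0.992 (reversed, as the total is fixed), 1.42 and 1.43, the covered length ratio 1.29, and there were 15 windows lower, 721 regions gained. With the strongest 20000 peaks they were 1.11, 1.32, 1.0001, 1.33 and 1.31, the covered length ratio of both chromosomes reversed to 0.997, the share difference was 0.607 points, and there were 42 windows higher, 16 lower, 136 regions gained and 75 lost; shorter lists hold fewer regions by construction, and the cause of the covered length was not tested. With the strongest 5000, 10000 and 40000 peaks, the ratio was 1.06, 1.06 and 1.24 on chromosome 13, 1.12, 1.22 and 1.33 on chromosome 18, and 0.996, 0.997 and 0.994 on the others, all 3 reversed. Joining peaks within 1 kb gave a share difference of 1.26 points, 560 gained and 48 lost regions. Windows of 500 kb gave 141 higher and 8 lower, and windows of 2 Mb 61 and 2, out of other totals. A reciprocal overlap of 50% gave 355 lost regions. The same number of stitched regions by rank from every table left an excess of 9.5 marks in place of 57.

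Without any 1 library, the ratio ranged from 1.92 to 2.37 on chromosome 13, 2.14 to 2.61 on chromosome 18, 1.42 to 1.75 on the others, 2.12 to 2.54 on the short and 2.15 to 2.63 on the long arm. The covered length ratio ranged from 1.39 to 1.73, the share difference from 0.994 to 1.21 points, windows higher from 95 to 101 and lower from 5 to 12 (12 without GFP replicate 2, 8 without SMARCB1 replicate 1), gained regions from 1630 to 3677, lost from 224 to 674 and the excess of marks from 42.5 to 71.5. The labels number replicates alike in both groups, but nothing ties a number to a shared batch, and the log2 ratio of replicate 1 to 2 correlated between groups with r = 0.619 over 22 autosomes and 0.174 over 1236 windows. With the replicate number as a block, the ratios were 2.13, 2.36 and 1.58, 95 windows were higher and 5 lower, and no direction changed.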
